A study of Mus musculus with 5 samples.

Results

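The nuclear genes of the respiratory chain and ATP synthase were followed over 5 cultures of mouse CD4 T cells. They were picked by symbol and not by a cut on their values, though with earlier results of these arrays known. The set holds genes whose symbol starts with Nduf, Uqcr or Atp5, and Sdha, Sdhb, Sdhc and Sdhd. Of 94 such symbols in the RefSeq gene table (16 of the unmatched ones pseudogenes), 75 had a probe, out of 21362 genes with a value on the arrays. The brightest of a gene's probes stood for it. The 75 genes fall into 7 core and 29 supernumerary subunits of complex I, 8 complex I assembly factors, 4 subunits of complex II, 8 of complex III, 17 of ATP synthase, and the pair Ndufa4 and Ndufa4l2. The assembly factors are not subunits, and Ndufa4, first described in complex I, is now assigned to complex IV.

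All cells came from splenic naive CD4 T cells of C57BL/6 mice, and 1 Agilent array was hybridised with the Cy3-labelled total RNA of each culture. Th1reg cells were rested cells kept for 4 days with antibodies to CD3 and CD28, antibodies that block IFN-gamma and IL-4, IL-2 and TGF-beta, the iTreg medium (12 days in all). Th1+TGFb cells were Th1 cells put straight into that medium for 4 days (8 days in all). iTreg cells were naive cells kept in it for 4 days. Rested cells were Th1 cells held for 4 days with IL-2 and the same blocking antibodies to IFN-gamma and IL-4, without CD3 or CD28 stimulation (8 days in all). Th1 cells were naive cells given 4 days of CD3 and CD28 stimulation along with IL-2, IL-12 and an antibody to IL-4. The cultures therefore differ in age as well as in medium. The labels give neither the number of animals nor whether cells were pooled.

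Complexes I to IV pass electrons from NADH and succinate to oxygen. Complexes I, III and IV pump protons across the inner mitochondrial membrane, and ATP synthase uses the returning protons to make ATP. Complex I takes electrons from NADH, complex II from succinate, and complex III hands them to cytochrome c. T cells rely on this pathway both at rest and during activation, when mitochondrial mass and glycolysis increase together. A few subunits are encoded in the mitochondrial genome, and none of those had a matched probe here.

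With 1 array per culture there was no spread between cultures, so no p-value is given and every difference is between single arrays, whose number limits the precision. Levels are log2 of the processed signal over the array's own 75th percentile, differences are log2 of the first culture over the second, and a gene is called 2-fold higher or lower at a log2 difference of at least 1. The technical SD of a difference was 0.10 from repeat spots and 0.20 from the scanner's error estimate, and neither holds variation between cultures. Different probes bind with different strength, so levels are compared between arrays and not between genes. Less RNA per cell and fewer cells of a type cannot be told apart in such bulk samples. The 8 comparisons share arrays and are not independent of each other.

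Signal stood well above background for 45.7% to 48.7% of spots per array. The scaling signal (the 75th percentile) was 307 on the Th1reg, 198 on the Th1+TGFb, 271 on the iTreg, 144 on the rested and 240 on the Th1 array. All 8 measured CD4 T cell markers were well above background on every array. Of the other cell types, Cd79a and Pax5 (B cells), Lyz1, Lyz2, S100a8 and S100a9 (myeloid cells), Klrb1c and Ncr1 (NK cells), and Hbb-bt and Alas2 (erythroid cells) passed that mark nowhere. The summed signal of the 9 myeloid markers, in multiples of the 75th percentile, was 395 on the Th1reg, 1127 on the Th1+TGFb, 901 on the iTreg, 1732 on the rested and 551 on the Th1 array, and 4 or 5 of the 9 were well above background on each. Nearly all of that sum came from Itgam, Csf3r and Siglech, well above background on every array. Itgam had levels of 5.60, 7.95, 6.58, 8.84 and 6.52 in that order of arrays, Csf3r 7.24, 8.64, 8.59, 9.16 and 7.65, and Siglech 7.60, 8.90, 8.71, 9.45 and 8.0. All 3 were highest in rested and lowest in Th1reg cells. The 7 B cell markers summed to 1.11, 3.06, 2.63, 5.70 and 1.33 in that order of arrays, with 3 or 4 well above background. The 6 markers of CD8 T and NK cells summed to at most 11.2 (Th1+TGFb) and the 4 erythroid markers to at most 0.304 (iTreg). The myeloid and B cell sums were highest on the rested array, where most of the respiratory genes were lowest, and their part in the results was not tested.

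Of the 75 genes, 73 were well above background on all 5 arrays. Ndufa4l2, a hypoxia-induced paralog of Ndufa4, was not well above background on any. Ndufaf8, a complex I assembly factor, was well above background on the Th1reg and iTreg arrays only. The median level of the 75 was 6.41 in Th1reg, 5.83 in Th1+TGFb, 5.58 in iTreg, 5.10 in rested and 6.22 in Th1 cells. Th1reg and Th1 cells thus stood at the top and rested cells at the bottom. Among the 73, Th1reg and Th1 cells both lay above the other 3 cultures for 65 genes. The rested array was the lowest for 57 and the iTreg array for 15, with Ndufa4 the exception (lowest in Th1+TGFb). The plot of levels by role shows the median course of each of 8 roles, without Ndufa4.

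**Figure D1:**
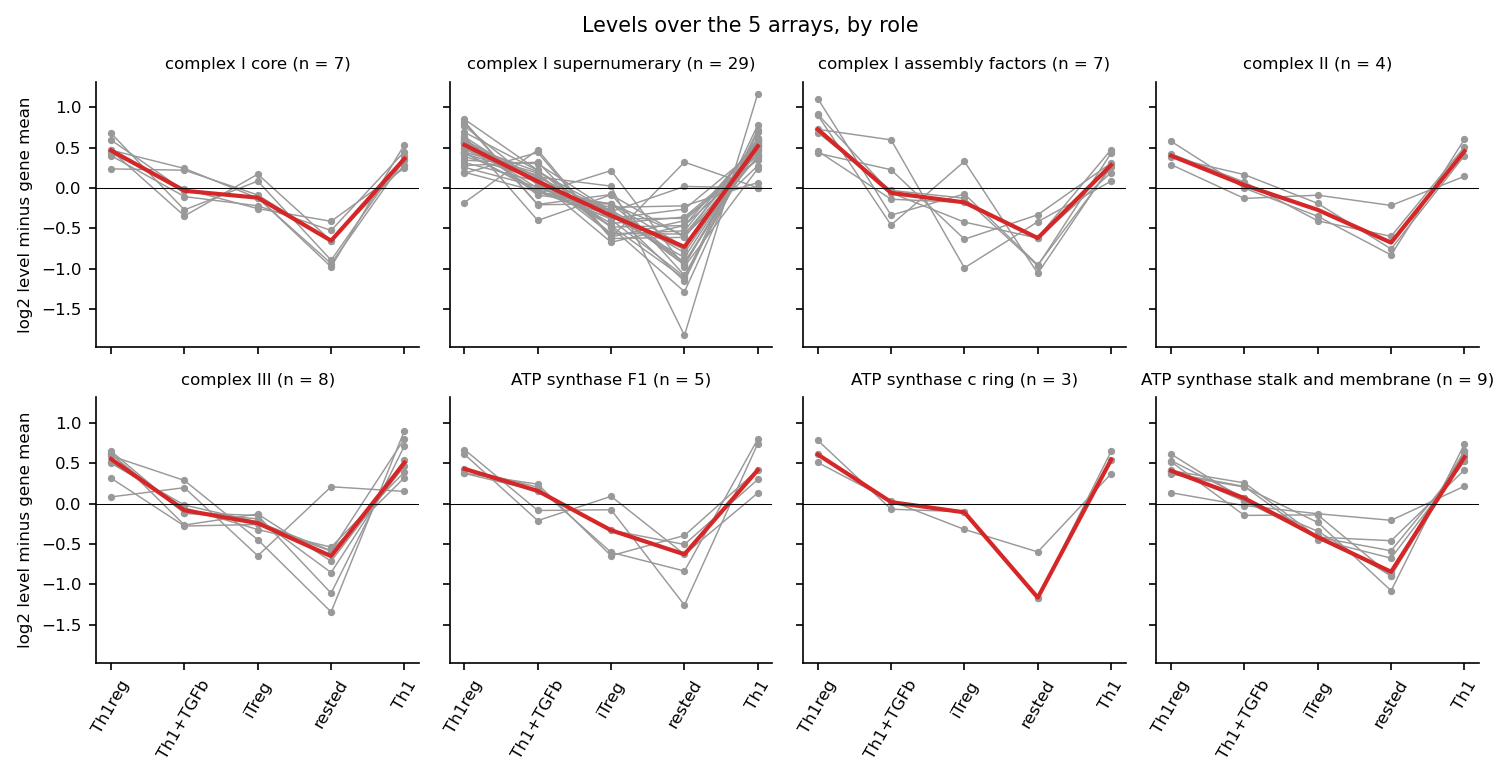
Log2 level minus the gene's mean over the 5 arrays (y axis) for the genes well above background on all arrays, by role, with cultures on the x axis. Grey lines are genes and the red line is the median of the role; the lines join arrays for reading only. In each of the 8 panels the red line is lowest in rested cells. Ndufa4 is not drawn.

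Relative to the scaling signal, rested cells had lower levels of most of these transcripts than Th1 cells. Of 73 measured genes, 48 were 2-fold lower in rested than in Th1 cells and none was 2-fold higher, where 26.7% of all genes were 2-fold lower and 17.6% higher. Their median log2 difference was -1.20, a 2.29-fold lower level, against -0.29 for all genes. Bright genes in general were lower on the rested array. The 5580 other genes with a mean level from 1.58 to 7.91, the 5th to 95th percentile of the 75, had a median of -0.62. The respiratory genes lay a further 0.57 below those. The 5580 are called equally bright or of like brightness here. They were chosen by that wide range only and not matched to the respiratory genes, so brightness is not held equal.

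Th1reg cells were rested cells after 4 days in the iTreg medium, and in them 50 of 74 genes stood 2-fold above rested cells and none 2-fold below (all genes: 27.7% higher, 20.0% lower). The median log2 difference was 1.26, or 2.39-fold, against 0.29 for all genes and 0.62 for the equally bright genes. Between Th1reg and Th1 cells no gene was 2-fold higher or lower (all genes: 6.28% higher, 8.57% lower). There the median difference was 0.04 and the largest were 0.85 for Ndufaf6 and -0.67 for Ndufab1. Of the 73 genes, 67 lay within 0.5 log2 units of each other in Th1reg and Th1 cells. These are different arrays of cells 8 days apart in culture, and a like level does not show that the cells are alike.

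**Figure D2:**
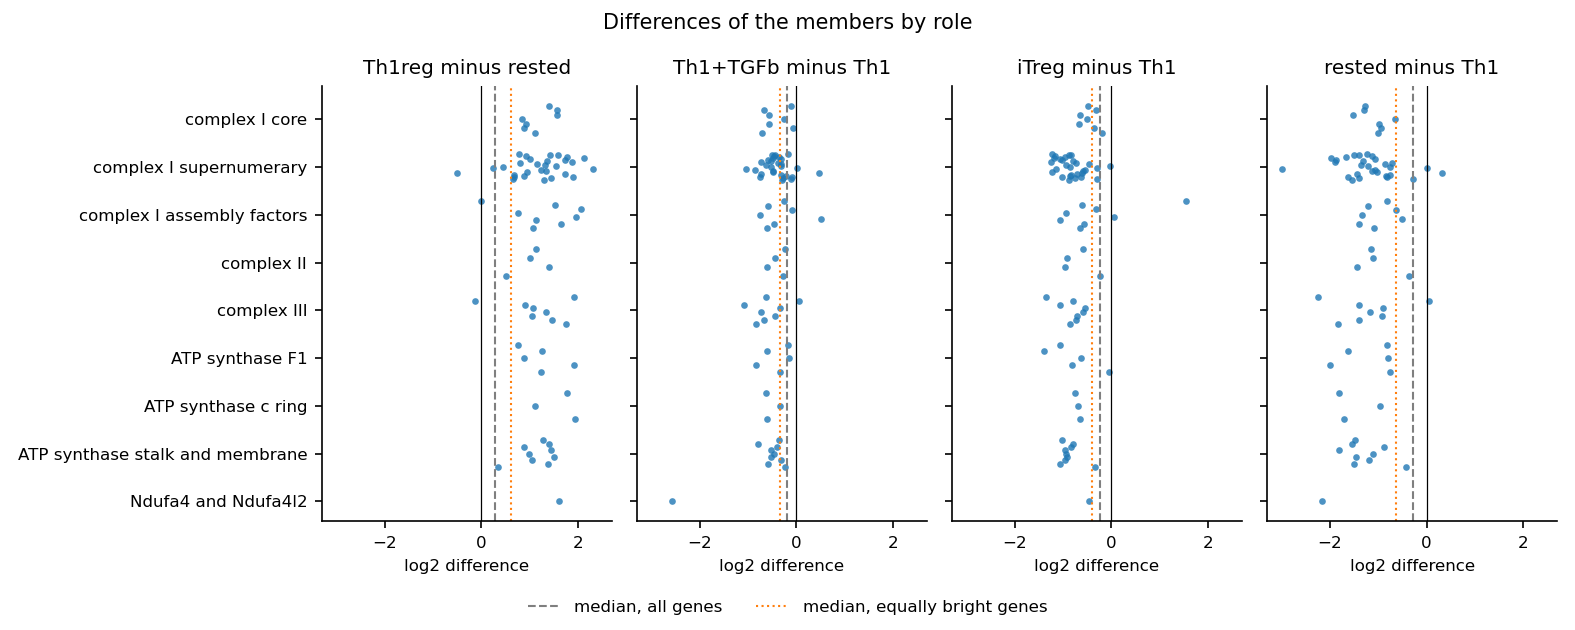
Log2 difference (x axis) of each gene in 4 comparisons, by role (rows). Points are genes, the dashed line is the median of all genes and the dotted line that of genes of like brightness. Of the points, 70 of 74 lie right of the dashed line in Th1reg minus rested and 70 of 73 left of it in rested minus Th1.

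The core subunits of complex I carry the flavin and iron-sulfur clusters that take electrons from NADH to ubiquinone. Ndufs1, the largest of them, had levels of 5.34 in Th1reg, 4.53 in Th1+TGFb, 5.05 in iTreg, 4.23 in rested and 5.24 in Th1 cells. Ndufv1, which binds NADH and the flavin, had 6.50, 5.55, 5.91, 4.93 and 6.22 in the same order. Both were lowest in rested cells and stood higher in iTreg than in Th1+TGFb cells. The difference between rested and Th1 cells was -1.01 for Ndufs1 and -1.30 for Ndufv1. All 7 core subunits were lower in rested than in Th1 cells, 4 of them 2-fold, with a range from -1.51 (Ndufs8) to -0.66 (Ndufs7). All 7 were higher in Th1reg than in rested cells, by 0.84 (Ndufs7) to 1.57 (Ndufv1 and Ndufs8), and 4 were 2-fold higher.

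Supernumerary subunits surround that core and serve its stability and assembly. Of the 29, 20 were 2-fold lower in rested than in Th1 cells and 18 were 2-fold above rested cells in Th1reg cells. Ndufab1 is the mitochondrial acyl carrier protein, which also serves lipoic acid synthesis and iron-sulfur cluster assembly. Its level was 2.31 in Th1reg, 1.95 in Th1+TGFb, 1.84 in iTreg, -0.01 in rested and 2.98 in Th1 cells. Rested cells stood far below the other 4, and the difference of -2.99 from Th1 cells was the largest of the 73. Ndufc1, a small membrane subunit, had 6.02, 5.39, 4.68, 3.88 and 5.86 in the same order, with a difference of -1.98 between rested and Th1 cells. Ndufb6 and Ndufb8, other membrane-arm subunits, differed there by -1.90 and -1.88, and Ndufc2 by -1.68.

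Some supernumerary subunits left this course. Ndufa6, an LYR-motif protein that binds the acyl carrier protein Ndufab1, had levels of 5.38 in Th1reg, 6.03 in Th1+TGFb, 4.94 in iTreg, 5.88 in rested and 5.56 in Th1 cells. It was highest in Th1+TGFb and rested cells, where its partner Ndufab1 was low or intermediate. Its difference was 0.32 between rested and Th1 cells and -0.50 between Th1reg and rested cells. Scaled to spike-in probes, these became -0.84 and 0.97, so its direction depends on the scaling, and the same holds for Uqcrh and Ndufb10. Ndufb10 had 7.15 in Th1reg, 6.91 in Th1+TGFb, 6.60 in iTreg, 6.91 in rested and 6.90 in Th1 cells. Its rested and Th1 levels differed by 0.02, less than the technical SD.

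Assembly factors guide the building of complex I and leave the finished enzyme. Of the 8, 6 were 2-fold above rested cells in Th1reg cells and 4 of 7 measured were 2-fold lower in rested than in Th1 cells. Ndufaf6 had levels of 2.14 in Th1reg, 0.70 in Th1+TGFb, 0.96 in iTreg, 0.08 in rested and 1.29 in Th1 cells. Ndufaf4 had 3.44, 2.08, 2.87, 1.48 and 2.82 in the same order, and Ndufaf7, a methyltransferase, had 3.97, 3.0, 2.64, 2.44 and 3.25. Each was highest in Th1reg cells by the probe used, above Th1 cells by 0.85, 0.62 and 0.72, among the larger positive differences between these cultures. The dimmer probe of Ndufaf4 had 2.26, 0.63, 2.27, 0.75 and 1.30, with iTreg and Th1reg cells nearly level. It put rested cells -0.55 from Th1 cells, where the probe used gave -1.34. As a group the factors had a median difference of 0.44 between Th1reg and Th1 cells, where the core subunits had 0.10 and the supernumerary subunits 0.04. Ndufaf3 was lowest in iTreg cells (3.27, 3.14, 1.56, 2.13 and 2.63). Ndufaf8 was 2-fold lower in Th1reg than in iTreg cells (-1.27) and stood above Th1 cells in iTreg cells by a factor of at least 2.91, since on the Th1 array it was not well above background.

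Complex II, succinate dehydrogenase, is also an enzyme of the citric acid cycle. Its flavoprotein Sdha varied little, with levels of 4.94 in Th1reg, 4.52 in Th1+TGFb, 4.56 in iTreg, 4.44 in rested and 4.80 in Th1 cells. The iron-sulfur subunit Sdhb had 7.46, 6.88, 6.53, 6.05 and 7.48 in the same order. Rested and Th1 cells thus differed by -0.36 in Sdha and by -1.43 in Sdhb. The membrane anchors Sdhc and Sdhd differed there by -1.11 and -1.16. In Th1reg cells Sdha was 0.51 above rested cells, and the other 3 were 1.02 to 1.41 above.

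Complex III passes electrons from ubiquinol to cytochrome c. Uqcrc1, a core protein, had levels of 4.94 in Th1reg, 4.04 in Th1+TGFb, 4.18 in iTreg, 3.59 in rested and 4.77 in Th1 cells. The Rieske iron-sulfur protein Uqcrfs1 had 5.49, 4.89, 4.91, 4.58 and 5.98, and was 2-fold lower than in Th1 cells in Th1+TGFb (-1.08), iTreg (-1.06) and rested cells (-1.39). Uqcrq, a small subunit, had 7.83, 7.52, 6.79, 5.89 and 8.14, which put rested cells 2.25 below Th1 cells. Uqcrh, the hinge protein that helps cytochrome c dock, was nearly level, with 8.23 in Th1reg, 8.35 in Th1+TGFb, 7.50 in iTreg, 8.36 in rested and 8.30 in Th1 cells. Only the iTreg array stood apart for Uqcrh, with a difference of -0.80 from Th1 cells. Its other probe had 6.98, 7.17, 6.16, 7.05 and 7.04, the same course at a lower signal.

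The F1 part of ATP synthase holds the catalytic sites and lies in the matrix. Its catalytic subunit Atp5b had levels of 8.60 in Th1reg, 7.84 in Th1+TGFb, 7.85 in iTreg, 6.67 in rested and 8.67 in Th1 cells. Its partner Atp5a1, with which it forms the catalytic hexamer, had 6.70, 5.88, 6.18, 5.46 and 6.22. Rested cells differed from Th1 cells by -2.0 in Atp5b and by -0.76 in Atp5a1. Atp5d, a subunit of the central stalk, differed there by -1.63.

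The c subunits form the membrane ring that turns with the proton flow, and Atp5g1, Atp5g2 and Atp5g3 encode the same mature protein. Atp5g1 had 7.31 in Th1reg, 6.46 in Th1+TGFb, 6.43 in iTreg, 5.37 in rested and 7.08 in Th1 cells. Atp5g3 had 7.72, 7.13, 7.0, 5.94 and 7.76, and Atp5g2 had 8.97, 8.49, 8.14, 7.86 and 8.83. All 3 had the same order at the ends, lowest in rested cells and highest in Th1reg or Th1 cells. The difference between rested and Th1 cells was -1.71 for Atp5g1 and -1.82 for Atp5g3, and -0.97 for Atp5g2. Of the 9 subunits of the peripheral stalk and membrane part, 7 were 2-fold lower in rested than in Th1 cells. Atp5mpl (-0.88) and Atp5h (-0.42) fell short of that. Atp5h, a peripheral stalk subunit, had 8.04 in Th1reg, 7.88 in Th1+TGFb, 7.78 in iTreg, 7.70 in rested and 8.12 in Th1 cells. Its range of 0.42 was the narrowest of the 73 genes.

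Ndufa4 had a course of its own. Its level was 4.34 in Th1reg, 2.33 in Th1+TGFb, 4.45 in iTreg, 2.73 in rested and 4.90 in Th1 cells. Both 8-day cultures that came from Th1 cells were low, and the other 3 were high. The difference was -2.57 between Th1+TGFb and Th1 cells and 2.0 between Th1reg and Th1+TGFb cells. Which of the low cultures was lowest depended on the scaling. With spike-in scaling, though not with the other scalings, it was rested cells, at -3.33 from Th1 cells against -2.93 for Th1+TGFb cells. The gene had 1 probe, so no other probe bears on this. The plot of single genes sets it beside the others that left the common course.

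**Figure D3:**
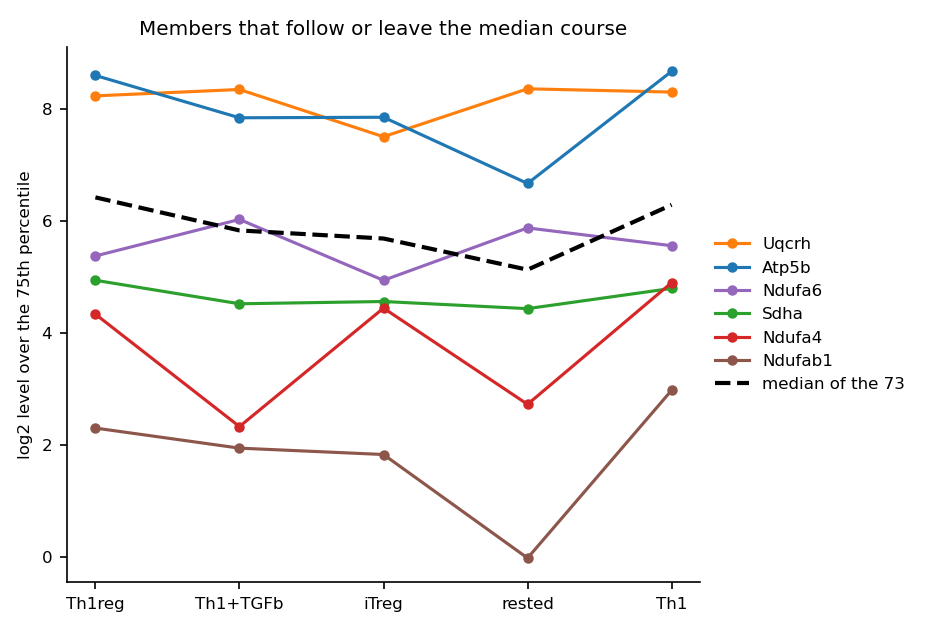
Log2 level over the array's 75th percentile (y axis) on the 5 arrays (x axis) for 6 genes and, dashed, the median of the 73 genes well above background on all arrays. Atp5b follows the dashed line, Uqcrh, Ndufa6 and Sdha stay flatter or go another way, Ndufa4 is lowest in Th1+TGFb and Ndufab1 in rested cells.

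Besides naive cells, the iTreg medium met 2 kinds of cells, rested and Th1. Th1+TGFb cells, which went into it without rest, lay below Th1 cells: 3 of 73 genes were 2-fold lower and none 2-fold higher (all genes: 7.79% lower, 11.4% higher), a share under that of all genes. These were Ndufa4 (-2.57), Uqcrfs1 (-1.08) and Ndufab1 (-1.03). The median difference was -0.46, against -0.20 for all genes and -0.34 for the equally bright ones. Compared with rested cells of the same total age, Th1+TGFb cells had 17 of 73 genes (23.3%) 2-fold higher and none 2-fold lower (all genes: 17.6% higher, 8.82% lower). The median there was 0.71, against 0.11 for all genes and 0.31 for the equally bright ones. Ndufab1 (1.96), Uqcrq (1.63), Ndufc1 (1.5) and Ndufc2 (1.31) led this list. Th1+TGFb lay between rested and Th1 cells for 68 of the 73 genes.

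Th1reg and Th1+TGFb cells had both spent 4 days in the iTreg medium. Of 74 genes, 6 were 2-fold higher in Th1reg cells and none 2-fold lower (all genes: 12.3% higher, 15.1% lower), which is under the share of all genes. They were Ndufa4 (2.0), the assembly factors Ndufaf6 (1.44) and Ndufaf4 (1.36), and the subunits Ndufa9 (1.04), Ndufa12 (1.03) and Ndufa5 (1.01). The median was 0.47, against 0.20 for all genes and 0.34 for the equally bright ones.

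iTreg cells, made from naive cells without a Th1 stage, lay below Th1 cells of the same age in 72 of the 73 genes. In this comparison 16 of 74 genes were 2-fold lower and 1, Ndufaf8, 2-fold higher (all genes: 17.8% lower, 10.8% higher), so the share of 2-fold calls was near that of all genes. The median was -0.78, against -0.23 for all genes and -0.40 for the equally bright ones. Among the lower genes the largest differences were -1.40 for Atp5d and -1.35 for Uqcrq. Ndufs1, Atp5a1 and Ndufb2 stayed close (-0.19, -0.04 and -0.02). The core subunits of complex I had a median of -0.47 and the supernumerary subunits one of -0.85. Th1reg cells, in turn, had 13 of 74 genes (17.6%) 2-fold higher than iTreg cells and 1, Ndufaf8, 2-fold lower. Of all genes 15.8% were higher and 12.2% lower, so the share higher was near that of all genes. The median was 0.81, against 0.28 for all genes and 0.45 for the equally bright ones. Ndufaf3 (1.72), Ndufc1 (1.34), Ndufaf7 (1.33) and Ndufb6 (1.24) led the higher genes.

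The range of a member's level over the 5 arrays ran from 0.42 (Atp5h) to 2.99 (Ndufab1) log2 units, with a median of 1.35, beside 1.29 for the 10714 genes well above background on all arrays. Of the members, 21 had several probes. Their 25 other probes had differences of the same sign as the probe used in 25 of 25 cases for rested against Th1 cells and in 24 of 25 for Th1reg against rested cells, with median gaps of 0.06. Over the 8 comparisons the sign was the same for 21 to 25 of the 25. The widest gap was 1.12 in Ndufv3 for Th1reg against rested cells, where its dimmer probe gave -0.33 and the probe used 0.79.

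The promoter windows of the 3 widest and 3 narrowest members with a RefSeq window are printed to show both ends of that range. They hold 300 bases each of build GRCm38.p6, all on the minus strand and written in the direction of transcription. Over all genes checked, 72.5% of windows ran from 250 bases before to 50 after the annotated start. The position of the printed windows against the start was not given separately. Capitals mark matches on either strand to 4 motifs: GCGCANGCG for NRF1, CCGGAAG for ETS factors such as GABPA, AAGATGGCG for YY1 and CACGTG for the E-box. The windows are chr7:122101799-122102098 (Ndufab1), chr6:11907401-11907700 (Ndufa4), chr3:51408906-51409205 (Ndufc1), chr11:115419870-115420169 (Atp5h), chr13:74350191-74350490 (Sdha) and chr17:24724374-24724673 (Ndufb10).
Ndufab1: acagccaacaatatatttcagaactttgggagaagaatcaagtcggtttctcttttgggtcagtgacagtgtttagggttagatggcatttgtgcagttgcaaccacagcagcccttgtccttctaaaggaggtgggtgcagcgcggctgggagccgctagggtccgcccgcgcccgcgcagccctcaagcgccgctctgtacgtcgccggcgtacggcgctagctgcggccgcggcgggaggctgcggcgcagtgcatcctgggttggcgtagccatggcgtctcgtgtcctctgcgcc
Ndufa4: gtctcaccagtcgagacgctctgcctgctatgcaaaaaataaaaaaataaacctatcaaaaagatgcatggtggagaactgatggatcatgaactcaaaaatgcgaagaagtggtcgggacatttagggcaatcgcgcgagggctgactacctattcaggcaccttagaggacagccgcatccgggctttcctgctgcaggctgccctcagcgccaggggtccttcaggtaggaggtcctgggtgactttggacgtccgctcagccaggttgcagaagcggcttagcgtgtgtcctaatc
Ndufc1: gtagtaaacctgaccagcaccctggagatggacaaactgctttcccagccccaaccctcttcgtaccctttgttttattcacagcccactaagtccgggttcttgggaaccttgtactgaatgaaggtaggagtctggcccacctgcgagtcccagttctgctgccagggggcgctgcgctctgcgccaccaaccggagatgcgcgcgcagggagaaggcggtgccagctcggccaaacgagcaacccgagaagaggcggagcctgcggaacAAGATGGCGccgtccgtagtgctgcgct
Atp5h: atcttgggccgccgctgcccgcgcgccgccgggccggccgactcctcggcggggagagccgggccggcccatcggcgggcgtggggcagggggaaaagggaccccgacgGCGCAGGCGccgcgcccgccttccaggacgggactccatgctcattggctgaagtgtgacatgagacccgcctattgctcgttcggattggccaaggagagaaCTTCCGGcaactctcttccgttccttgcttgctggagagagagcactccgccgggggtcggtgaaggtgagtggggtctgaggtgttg
Sdha: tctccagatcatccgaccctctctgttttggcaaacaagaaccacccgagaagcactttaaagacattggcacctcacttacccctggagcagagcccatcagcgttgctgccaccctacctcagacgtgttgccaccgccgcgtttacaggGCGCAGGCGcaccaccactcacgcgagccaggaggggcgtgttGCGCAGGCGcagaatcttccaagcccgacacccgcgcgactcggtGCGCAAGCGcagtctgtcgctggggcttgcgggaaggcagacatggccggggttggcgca
Ndufb10: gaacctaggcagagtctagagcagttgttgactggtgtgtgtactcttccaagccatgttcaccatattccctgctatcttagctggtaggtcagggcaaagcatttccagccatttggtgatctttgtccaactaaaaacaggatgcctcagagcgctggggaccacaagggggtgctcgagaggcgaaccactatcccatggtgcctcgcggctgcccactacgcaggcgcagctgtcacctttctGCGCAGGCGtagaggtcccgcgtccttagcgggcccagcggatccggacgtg

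Among the windows of the widest ranges, those of Ndufab1 and Ndufa4 held none of the 4 motifs and that of Ndufc1 held a YY1 match. The 3 narrowest each held the NRF1 letters, 3 times in Sdha, and Atp5h also the ETS letters. Over the 63 members with a window, the NRF1 letters stood in 31.7% (20), against 6.47% of 27025 promoters of all genes. The ETS letters stood in 23.8% against 9.12%, YY1 in 11.1% against 1.49% and the E-box in 9.52% against 7.24%. Matches to different motifs overlapped in none of the 63 windows. Members with and without the NRF1 letters had median differences of -1.17 and -1.31 between rested and Th1 cells, and 1.34 and 1.30 between Th1reg and rested cells. With and without the YY1 letters the medians were -1.16 and -1.31 between rested and Th1 cells. A match is a description of letters in the window and says nothing of binding.

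Genes outside the set with the most similar course were ranked by root mean square distance from the median course of the 73, each centred on its mean over the 5 arrays. The nearest of 10641 were Ss18l2, Fcf1, Tmem165, Ap1g1 and Myg1, at distances of 0.03 to 0.04. The median distance was 0.20 for the members and 0.52 for the other genes. With 5 arrays a course has few points, and many genes lie near it.

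Other mitochondrial genes were measured beside the members, on lists chosen with earlier results of these arrays known. Their counts stand beside the same shares of all genes, 26.7% lower and 17.6% higher in rested against Th1 cells and 27.7% higher in Th1reg against rested cells. Complex IV, which reduces oxygen, had 10 of 14 genes 2-fold lower in rested than in Th1 cells, and 8 of 13 2-fold above rested cells in Th1reg cells. Cox6a1 had 9.65 in Th1reg, 9.13 in Th1+TGFb, 8.87 in iTreg, 8.12 in rested and 9.74 in Th1 cells. Electron feeders and carriers had 11 of 14 genes 2-fold lower in rested than in Th1 cells and 13 of 14 2-fold above rested cells in Th1reg cells. Among them, cytochrome c (Cycs) had 7.21, 6.73, 5.69, 4.62 and 7.19, and the inhibitor of ATP synthase Atpif1 had 8.38, 7.70, 6.79, 5.81 and 7.97. Gpd2, which feeds electrons from the glycerol phosphate shuttle, differed by -2.83 between rested and Th1 cells. The median between rested and Th1 cells was -1.43 for the feeders and carriers, -1.35 for complex IV and -1.20 for the members.

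The citric acid cycle had 8 of 13 genes 2-fold lower in rested than in Th1 cells and 10 of 13 2-fold above rested cells in Th1reg cells. In iTreg against Th1 cells the cycle had a median of -0.40, where the members had -0.78. Assembly factors of complexes outside the Ndufaf names were more mixed, with 11 of 28 2-fold lower and 1 higher in rested than in Th1 cells. Uqcc2, which helps build complex III, differed there by -2.57, whereas Uqcc3, with a similar role, differed by 0.86 and the supercomplex factor Cox7a2l by 0.77.

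Regulators of mitochondrial biogenesis were mixed. Of 12 measured, 1 was 2-fold lower and 1 higher in rested than in Th1 cells, with a median of -0.21. Myc, a growth regulator, had 4.12 in Th1reg, 3.26 in Th1+TGFb, 4.23 in iTreg, 1.77 in rested and 4.29 in Th1 cells. The transcription factor Nrf1 had 2.25, 1.53, 2.32, 1.89 and 2.04, and Tfam, which packages and transcribes mitochondrial DNA, had 3.47, 2.73, 3.24, 2.86 and 3.27. Tfam differed by -0.13 between Th1+TGFb and rested cells. That is within the technical SD from the scanner's error estimate (0.20) but not within that from repeat spots (0.10). The coactivator Ppargc1a was well above background on the Th1+TGFb, iTreg and rested arrays only, with levels of -2.13, -2.77 and -1.38, the highest in rested cells.

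**Figure D4:**
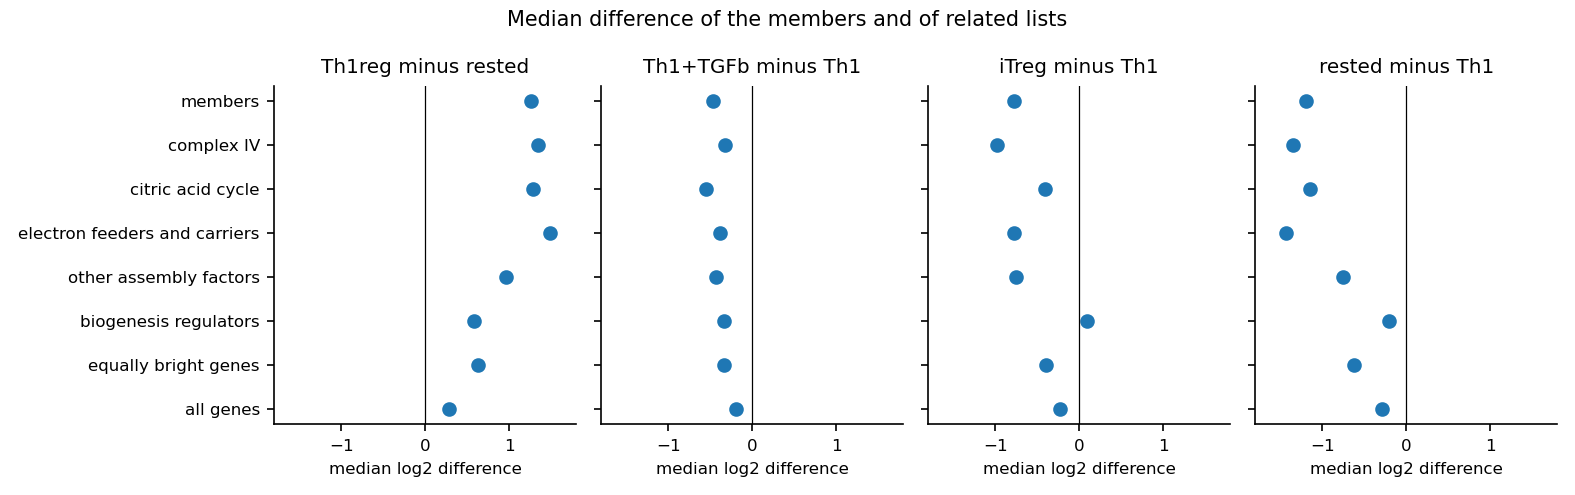
Median log2 difference (x axis) of the members, of 5 related lists, of equally bright genes and of all genes (rows) in 4 comparisons. In Th1reg minus rested and rested minus Th1 the members, complex IV, the citric acid cycle and the feeders and carriers lie farther from 0 than the equally bright genes, and the regulators do not.

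The size of these differences depends on how arrays are scaled to each other, as the plot of medians by processing shows. The median of all genes in Th1reg against rested cells ran from -0.45 to 1.75 over the alternatives, and of all 2-fold calls there, 58.0% were higher as reported and 36.5% to 92.9% under the alternatives. A scaling by 1 constant per array shifts the members and the equally bright genes alike, so their distance is the same by construction. Under the other alternatives (background correction, quantile normalization, filters, probe averaging) that distance lay between 0.60 and 0.68 in Th1reg against rested cells and between -0.60 and -0.52 in rested against Th1 cells. In iTreg against Th1 cells it was -0.38 as reported and -0.14 with normexp and quantile normalization.

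**Figure D5:**
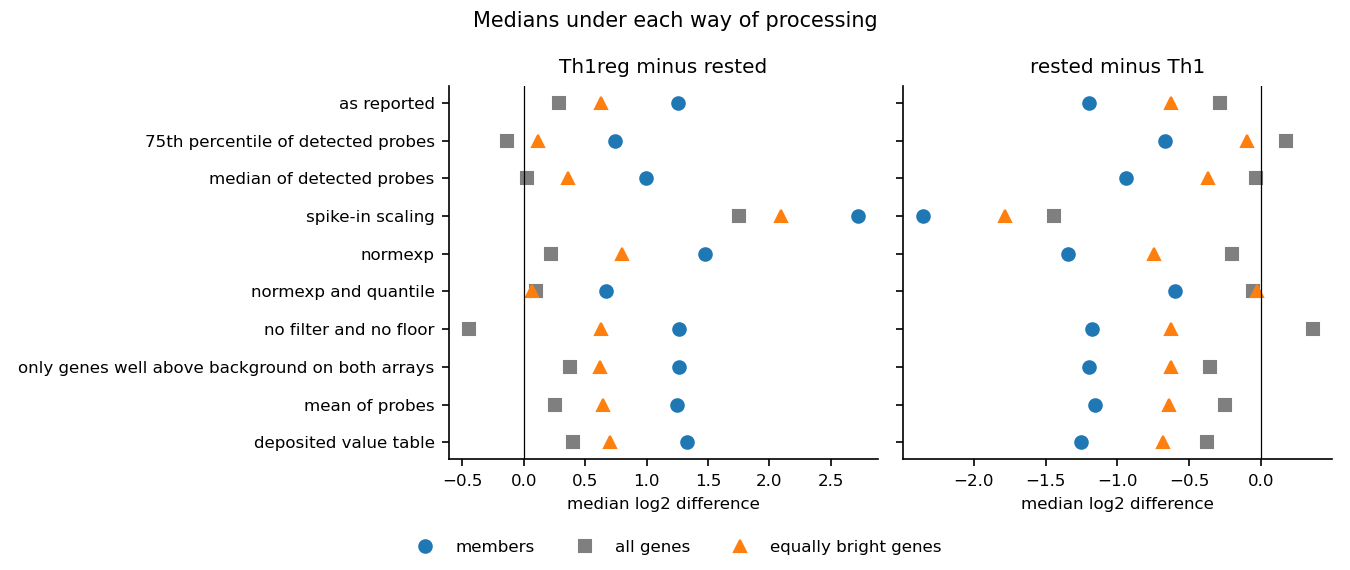
Median log2 difference (x axis) of the members (circles), all genes (squares) and equally bright genes (triangles) under each way of processing (rows), for Th1reg minus rested and rested minus Th1. Under a scaling by 1 constant per array the 3 symbols shift in the same direction. With no filter and no floor mainly the squares move, to -0.45 and 0.36 in that order of panels. In each row the circles lie farther from the squares than the triangles do.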

How the data were processed

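RNA of 5 cultures was measured on 1 Agilent 1-colour array each. The authors deposited scanner output of Agilent Feature Extraction 10.7.1.1, per the submitters' processing notes, whose processed signal is a linear intensity after background subtraction, not scaled between arrays. The deposited value table holds an intensity too: the processed signal divided by 1 constant per array, for 99.7% to 99.8% of probes within 0.01 log2 units, with column medians of 0.07 to 0.12. The sources used here do not state how the constants were chosen.

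From these, control and outlier spots were left out, spots of a probe averaged, and log2 taken over the array's 75th percentile. Gene names came from matching each probe's RefSeq accession to a GRCm38.p6 gene table, which named 28325 of 55681 probes; the array design names another build, so no position was taken for a probe. Where a probe was not well above background on one array, the lowest signal that was (or the probe's own, if brighter) took its place, so the difference is a bound; where it was dim on both, no difference was taken. No saturated spots occurred. The 5 arrays lay on 1 slide with 1 scan.

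Each of 8 comparisons was described by counts and medians beside all genes, since 1 array per culture allows no test. Only the difference and the 2-fold call were tested on simulated data, a pair of arrays with known shifts. Scaling, naming of probes and choice of the brightest probe were not tested in this way. Members and lists were chosen with earlier results of these data known. Genes were named by rule: per comparison the 4 members with the largest and the 4 with the smallest difference, members 2-fold apart (up to 12 per direction), 11 key subunits in all comparisons, the 3 largest differences of each related list, and the 5 genes nearest in course; the text gives a part of these. Ndufs7, Ndufs8, Sdhc, Sdhd, Nrf1, Tfam, Uqcc3 and Cox7a2l were named after their values were seen. Alternatives were other scalings, spike-in probes, normexp background correction (limma 3.58.1, R 4.3.3, offset 50) with and without quantile normalization, filters, probe averaging and the deposited table. The files hold no mean signal, so normexp used the median signal. Genes of like brightness were added after seeing the data, and were chosen by a range of mean level without matching.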

Additional observations from a re-analysis of the deposited data

Results flagged for a closer look

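The same medium went with opposite directions from different starting cells. Over the 73 genes with a value in both comparisons, the median difference was 1.26 for Th1reg minus rested cells and -0.46 for Th1+TGFb minus Th1 cells. The sign was positive in the first and negative in the second for 69 of the 73 genes (94.5%), and for 47.7% of all 12585 genes. Equally bright genes had the same directions, with medians of 0.62 and -0.34 in that order. The members lay 0.63 and -0.12 from those medians. The negative signs depended on scaling. In Th1+TGFb minus Th1 cells 69 of 73 genes were below 0 as reported, but 58 when scaled to the 75th percentile of detected probes. With normexp and quantile normalization it was also 58. Ndufa4 was 2-fold apart both ways, with 1.61 for Th1reg minus rested cells and -2.57 for Th1+TGFb minus Th1 cells. Ndufab1 was so too, with 2.32 and -1.03 in that order. Each value comes from 1 array per culture, and the difference between the comparisons was not tested.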

How the results depend on the processing

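No paired analysis was possible because each culture had 1 array, and for the same reason no array was left out. Over 8 comparisons and the alternatives run, the member median kept its sign, except for Th1reg minus Th1, where it was 0.04 as reported and -0.02 without assembly factors and members that are no subunits. Of the single named differences 1078 stayed close, 541 moved, and 0 of those 2-fold apart changed sign. Smaller differences, as of Ndufa6, Uqcrh and Ndufb10, did turn: -0.84, -1.10 and -1.14 for rested minus Th1 with spike-in scaling. Sizes and counts did depend on scaling, and for the values given here the cause was not tested. All values are the first culture minus the second.

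Scaled to the 75th percentile of detected probes, the member median was 0.75 for Th1reg minus rested (21 genes 2-fold higher, 1 lower, all genes 16.0% higher, 27.8% lower). It was 0.24 for Th1reg minus Th1+TGFb (3 higher, all genes 7.22%) and 0.45 for Th1reg minus iTreg (1 higher, all genes 8.34%). It was 0.43 for Th1+TGFb minus rested (5 higher, all genes 12.5%) and -0.22 for Th1+TGFb minus Th1 (1 lower, all genes 4.12%). For iTreg minus Th1 it was -0.40 (1 lower, all genes 10.2%) and for rested minus Th1 -0.67 (16 lower, all genes 14.7%). Scaled to the median of detected probes, the member median was 0.99 for Th1reg minus rested and -0.94 for rested minus Th1. There, 3 genes were higher for Th1reg minus Th1+TGFb (all genes 8.19%) and 6 for Th1reg minus iTreg (all genes 12.5%). Lower were 1 for Th1+TGFb minus Th1 (all genes 5.05%) and 8 for iTreg minus Th1 (all genes 14.8%). Outside Th1reg minus rested and rested minus Th1, each of these shares was under that of all genes. With the 75th percentile of detected probes, the share higher in Th1reg minus rested was above that of all genes. So was the share lower in rested minus Th1.

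Scaled to the 8 spike-in probes, the median was 2.72 for Th1reg minus rested, 1.14 for Th1reg minus Th1+TGFb (49 higher; all genes 42.4%), 0.34 for Th1reg minus Th1 (2 higher; all genes 10.8%), 1.51 for Th1+TGFb minus rested (66 higher; all genes 45.5%), -0.83 for Th1+TGFb minus Th1 (15 lower, all genes 21.1%), -0.49 for iTreg minus Th1 (2 lower, all genes 11.6%) and -2.36 for rested minus Th1.

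With normexp, the median was 1.48 for Th1reg minus rested, and the members lay 1.26 above all genes there and -1.14 from them in rested minus Th1. With normexp, Ndufaf8 was no longer called, which left 0 genes lower in Th1reg minus iTreg and 0 higher in iTreg minus Th1. The count higher in iTreg minus Th1 was also 0 with only genes well above background on both arrays.

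With normexp and quantile normalization, the median and, after it, its distance from all genes were 0.67 and 0.58 for Th1reg minus rested (19 higher, 1 lower, all genes 16.5% higher), 0.31 and 0.24 for Th1reg minus iTreg (1 higher, 0 lower), -0.10 and -0.10 for iTreg minus Th1 (0 higher, 0 lower) and -0.60 and -0.54 for rested minus Th1 (1 higher, 10 lower, all genes 14.4% lower, so that share was near that of all genes). They were 0.33 and 0.34 for Th1+TGFb minus rested (3 higher). The median was -0.18 for Th1+TGFb minus Th1 (1 lower), and 3 genes were higher in Th1reg minus Th1+TGFb. Of all genes, 6.72% were higher and 5.76% lower in Th1reg minus iTreg. In iTreg minus Th1 6.60% were higher and 8.11% lower. The share higher was 10.8% in Th1+TGFb minus rested and 5.04% in Th1reg minus Th1+TGFb, and 2.64% were lower in Th1+TGFb minus Th1.

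With no filter and no floor, the distance of the members from all genes was 1.71 for Th1reg minus rested, 0.77 for Th1reg minus Th1+TGFb, 0.93 for Th1reg minus iTreg, 0.89 for Th1+TGFb minus rested, -0.64 for Th1+TGFb minus Th1, -0.76 for iTreg minus Th1 and -1.54 for rested minus Th1. The added dim genes enter the median of all genes here. The count lower was then 1 for Th1reg minus rested (all genes 20.6%), 1 for Th1reg minus Th1 (all genes 9.37%) and 1 for Th1+TGFb minus rested (all genes 10.1%). Against equally bright genes, chosen after seeing the data, the distance was 0.63 for Th1reg minus rested and -0.57 for rested minus Th1.

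The share of higher among all 2-fold calls ran over the settings from 36.5% to 92.9% for Th1reg minus rested and from 6.54% to 65.3% for rested minus Th1. Signal limits Ndufa4l2 and Ndufaf8, which were near background.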
